A study of Mus musculus with 6 samples.

Results

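The genes described here encode the parts of the proteasome and its helpers, and 46 of the 22180 genes with a probeset of their own on the array met the rule for them. The rule took every symbol that starts with Psma, Psmb, Psmc, Psmd, Psme or Psmg and a digit, left out Psmb8 and Psmb9, and kept for each gene its brightest probeset with that 1 symbol. Of the 46, 44 are subunits, activators or assembly chaperones. Psmc3ip, a partner of meiotic recombination proteins, and Psme3ip1, a partner of the nuclear activator encoded by Psme3, entered through their letters alone. Psma4 is not represented, because its probesets also list another gene. The rule used no genotype call, and measured values only to pick each gene's probeset. It was set with earlier results of these data known.

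Whole-brain RNA was measured in 6 samples on Affymetrix Mouse Gene 2.0 ST arrays, 1 array each. The 3 knockout (KO) samples came from Thy1Cre-ERT2-EYFPHuRf/f mice, with both alleles of Elavl1, the gene of the RNA-binding protein HuR, floxed. The 3 control samples, labelled WT, came from Thy1Cre-ERT2-EYFPHuRf/+ mice, with 1 floxed and 1 intact allele, which also carried Cre and could lose 1 copy. All mice, of either sex, received tamoxifen at 10 and 11 weeks and their brains were taken at 91 days; Thy1 drives the inducible Cre in neurons, and other cell types keep the gene. The title places the comparison in a study of motor neuron disease in mice that lack HuR in neurons.

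The proteasome is the barrel-shaped protease that degrades proteins tagged with ubiquitin. Its core particle stacks rings of alpha subunits, which form the gate, on rings of beta subunits, some of which cut the substrate. A regulatory particle with a base of ATPases and a lid that removes ubiquitin feeds substrates in, while other activators open the gate without ubiquitin. Neurons, which do not divide, rely on it for the turnover of synaptic and misfolded proteins, and a fall in its activity is known to raise transcription of its subunit genes through the factor encoded by Nfe2l1.

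Array medians lay between 13.4 and 14.65 on the intensity scale. Levels below are log2(intensity + 1) after quantile normalization, in the order of arrays 1, 2 and 3 of each group. Elavl1 had levels of 8.22, 8.17 and 8.27 in KO brain, against 8.27, 8.01 and 8.53 in control brain. The groups overlapped, with a log2 difference of -0.05 (95% interval -0.39 to 0.29; exact two-sided permutation p = 0.7, the smallest possible being 0.1), so the targeted transcript did not separate the labels in whole brain. Whether its probeset lies in the deleted stretch is not given in the sources at hand, so it may check nothing. Both arrays numbered 3 stood apart from the other 4: Xist was at 7.68 in KO 3 and 7.69 in control 3, against 2.52 to 2.79 in the others, and the labels give no sex per mouse. Neuron markers were detected on all arrays (5 of 5, summed log2 level 12.62 to 13.37 in KO and 12.55 to 13.37 in control brain), as were those of astrocytes and microglia. In whole tissue, fewer cells of a type and less RNA per cell cannot be told apart.

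No proteasome gene passed the test for a difference between the genotypes. All 46 members passed the brightness filter that left 16635 genes, and limma called 0 of them at a 5% false discovery rate (Benjamini-Hochberg), as it called 0% of all genes tested. At an unadjusted p under 0.05 there were 0 members as well, against 1.7% of all genes, and with the replicate number as a block 0 members again, against 4.85%. The smallest unadjusted limma p among the members was 0.246 for Psme4, without the block. No member had all KO arrays above or all below the control arrays, against 5.7% of all genes (3.14% higher and 2.55% lower in KO). The groups must overlap in any gene with both arrays numbered 3 below or above the other 4. Both lay below in 28 members and above in 3, against 20.6% and 23.4% of all genes. The count of 0 therefore says little about genotype. In KO brain 24 members lay above and 22 below the control mean, with a median log2 fold change of 0.007 (54.8% of all genes lay above 0, median 0.013).

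The measurement bounds the differences rather than showing that they are 0. The 95% interval of KO minus control stayed inside 1.5-fold either way for 43 of the 46 members, against 80.6% of all genes, and inside 2-fold for all 46, against 98.3%. The 3 whose interval reached beyond 1.5-fold were Psma7, Psmc6 and Psme2. Psma5, Psma8, Psmb11 and Psmg4 lay inside, but were read near or below the array medians. A narrow interval of so dim a gene does not bound its RNA well. With the replicate number as a block, the interval stayed inside 1.5-fold for all 46, against 93.9% of all genes. That of Psma7 ran from -0.32 to 0.28. The block takes same-numbered arrays as pairs, which no label states. These are intervals for the mean of whole brain, in which neurons are 1 cell type among several.

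**Figure D1:**
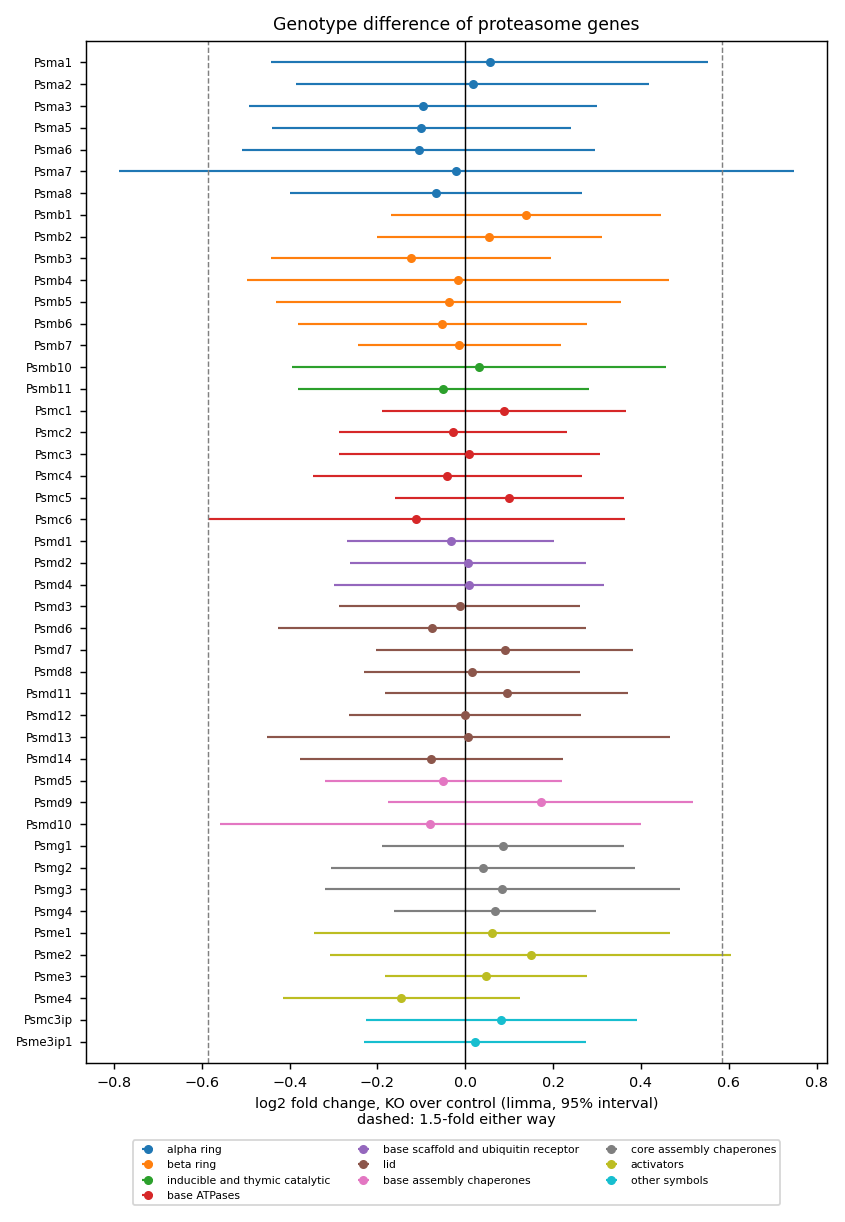
Log2 fold change of KO over control brain for each proteasome gene (point) with its 95% limma interval (line; 3 arrays per group), coloured by structural group; dashed lines mark 1.5-fold either way. Every interval includes 0, and those of Psma7, Psmc6 and Psme2 cross a dashed line.

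The alpha ring gives the core particle its outer wall and gate. Of its 7 represented genes 2 lay above and 5 below 0, from -0.11 to 0.06 (median -0.07), and none passed the test. Psma6 had levels of 8.22, 8.35 and 7.81 in KO brain, against 8.31, 8.39 and 8.01 in control brain. Psma3 had 9.91, 10.01 and 9.60 in KO brain and 10.13, 10.03 and 9.64 in control brain. In both genes array 3 was the lowest of its group and the groups overlapped.

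Psma7 varied most of all members. Its levels were 9.48, 9.68 and 8.59 in KO brain, against 9.68, 9.38 and 8.75 in control brain, a log2 fold change of -0.02 ± 0.33 (SE). Array 3 lay 0.990 below the mean of arrays 1 and 2 in KO brain and 0.777 below it in control brain, so the width of the Psma7 interval (-0.79 to 0.75) came with the low arrays numbered 3 of both genotypes. Without those arrays the within-group SD of Psma7 was 0.180, against 0.529 with them. Psma1 behaved alike on a smaller scale, with 7.996, 8.27 and 7.65 in KO brain, against 8.10, 8.11 and 7.53 in control brain.

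Psma5 and Psma8 were dim. Psma5, a constitutive subunit, was read at 3.62, 3.72 and 3.65 in KO brain, against 3.94, 3.47 and 3.88 in control brain, near the array medians of 3.85 to 3.97 before normalization. Its other probeset was dimmer still, at 2.40 to 3.37, and gave a log2 difference of 0.49 where the brighter one gave -0.10, so Psma5 is poorly measured here. Psma8, the alpha subunit of male germ cells, had 3.70, 3.78 and 3.55 in KO brain, against 3.57, 3.66 and 4.0004 in control brain.

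Because most alpha genes were low on the same arrays, the letters upstream of their starts are shown. A CCAAT box (searched as CCAAT on both strands), the site of the factor NF-Y in many housekeeping promoters, was found in 5 of the 6 alpha genes with a promoter window, the genes Psma1, Psma2, Psma3, Psma6 and Psma7. Over all members with a window it was found in 15 of 38, or 39.5%, and over all genes with a window in 41.1%, so the share of the whole family is that of the background. Capitals mark the box nearest before the start of each gene, on the gene's strand (RefSeq, GRCm38.p6).
Psma1, chr7:114276198-114276226, minus strand: cggagcttcctgCCAATcccacgttctca
Psma2, chr13:14613176-14613204, plus strand: ggtgactctcctCCAATcagagcaaagaa
Psma3, chr12:70974472-70974500, plus strand: accttagctcttCCAATaccagtttcagt
Psma6, chr12:55384181-55384209, plus strand: gaccactaggtgCCAATggaattcctgag
Psma7, chr2:180042644-180042672, minus strand: gcctgcctgtcgCCAATgcgcgctcgagt

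For Psma7, the member with the widest spread, the 250 bases before the start hold 1 CCAAT box, in capitals, at chr2:180042465-180042714 on the minus strand of GRCm38.p6.
Psma7 upstream: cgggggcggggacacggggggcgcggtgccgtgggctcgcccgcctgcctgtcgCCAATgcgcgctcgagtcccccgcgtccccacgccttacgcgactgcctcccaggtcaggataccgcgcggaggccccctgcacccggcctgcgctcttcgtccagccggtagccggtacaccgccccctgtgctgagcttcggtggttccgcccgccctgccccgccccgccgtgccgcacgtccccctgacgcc
Members with and without a CCAAT box had median differences of -0.21 and -0.17 between the arrays numbered 3 and the other 4, and median log2 fold changes of -0.02 and 0.01 between the genotypes. Both arrays numbered 3 lay below the other 4 in 9 of the 15 members with a box and in 15 of the 23 without one, against 20.6% of all genes tested. A match is a description of letters and was not tested as a site.

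The beta ring holds the proteolytic sites. Its 7 genes ranged from -0.12 to 0.14 (2 above and 5 below 0, median -0.02), and none passed. Of the catalytic subunits, Psmb5, which carries the chymotrypsin-like site, had 8.19, 8.28 and 7.82 in KO brain, against 8.32, 8.19 and 7.89 in control brain. Psmb6, with the caspase-like site, had 7.54, 7.70 and 7.26 in KO brain, against 7.52, 7.68 and 7.47 in control brain. Their log2 fold changes were -0.04 ± 0.17 (SE) and -0.05 ± 0.14 (SE), and in both genes array 3 was the lowest of its group.

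Psmb7, with the trypsin-like site, kept its level nearly constant over all arrays. It had 9.52, 9.55 and 9.50 in KO brain, against 9.56, 9.60 and 9.46 in control brain, a log2 fold change of -0.01 with a 95% interval from -0.25 to 0.22. Its within-group SD was 0.054, against a median of 0.156 over the members and 0.175 over all genes tested.

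The non-catalytic beta genes held the largest positive value of the core particle. Psmb1 had 9.96, 10.03 and 9.74 in KO brain and 9.84, 9.88 and 9.59 in control brain, and KO exceeded control by 0.12, 0.15 and 0.15 between arrays of the same number. Its log2 fold change of 0.14 ± 0.13 (SE) had an unadjusted limma p of 0.327, and of 0.143 with the replicate number as a block. The groups still overlapped, because array 3 was the lowest of each.

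Psmb3 had 5.22, 5.25 and 4.96 in KO brain, against 5.07, 5.32 and 5.41 in control brain. Psmb2 had 6.80, 7.02 and 6.94 in KO brain, against 6.95, 6.80 and 6.84 in control brain. The order of the arrays in these 2 genes matched neither the genotypes nor the numbers. Psmb4, chosen after its values were seen, followed Psma1 instead, with 7.79 in KO 3 and 7.82 in control 3 against 8.28 to 8.40 on the other 4 arrays.

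**Figure D2:**
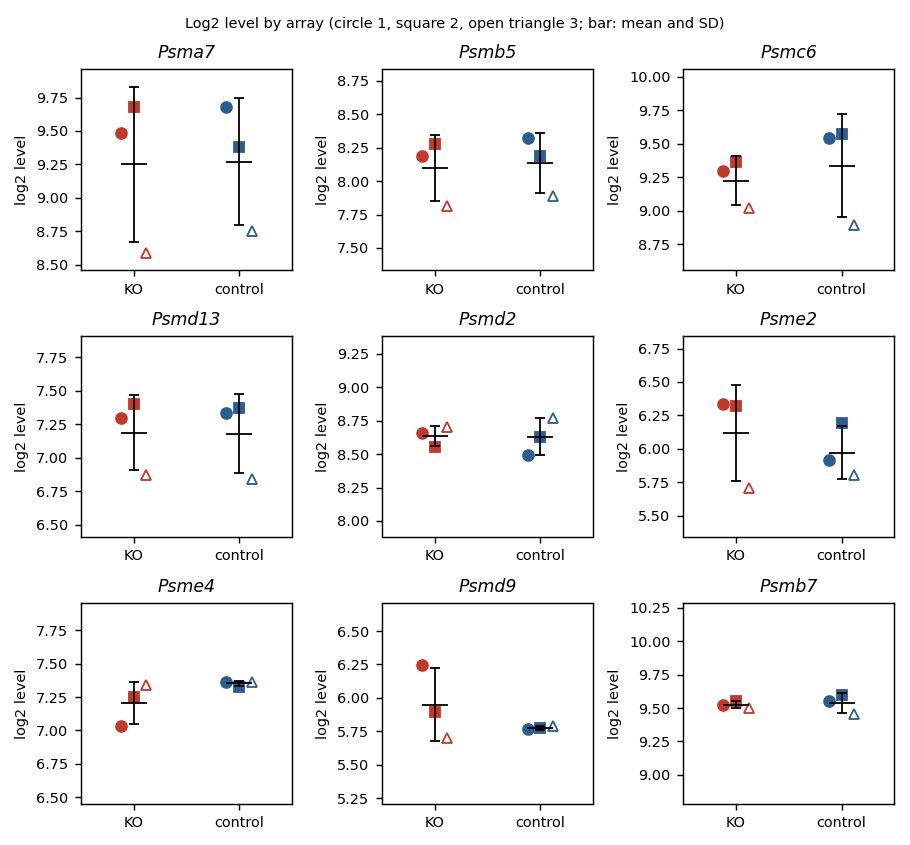
Log2 level of 9 proteasome genes in each KO (red, left) and control (blue, right) array, with the group mean and SD (n = 3 each); every panel spans the same height in log2 units. Array 3 is low in both groups for Psma7, Psmb5, Psmc6, Psmd13 and Psme2. It is the highest of each group in Psmd2 and Psme4, Psmd9 is high in KO 1, and in Psmb7 all 6 arrays lie close together.

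Immune cells and interferon swap the catalytic beta subunits for inducible ones. Psmb10, which replaces Psmb7, had 7.98, 8.06 and 7.51 in KO brain, against 7.82, 8.04 and 7.59 in control brain, a log2 fold change of 0.03 ± 0.18 (SE). Of the pair left out of the family by its rule, Psmb8 had 5.57, 5.47 and 5.13 in KO brain, against 5.43, 5.55 and 4.95 in control brain, and Psmb9 had 3.79, 3.48 and 3.33 in KO brain, against 3.69, 3.58 and 3.47 in control brain. All 3 genes were lowest in arrays numbered 3, and their genotype values (0.03, 0.08 and -0.04) stayed within 1 standard error. Psmb9 was dim, with intensities of 8.75 to 12.79 against array medians of 13.4 to 14.65. Its control 3 value lay barely below that of KO 2. Psmb11, the subunit of thymic epithelium, was dim at 3.44 to 3.85 in KO and 3.51 to 3.75 in control brain.

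Among the activators, which bind the ends of the core particle, the genotype values pointed both ways. Psme4, a large activator that opens the gate for histones and unfolded proteins, had the smallest p of the family: 7.03, 7.25 and 7.34 in KO brain, against 7.36, 7.33 and 7.37 in control brain. KO 1 alone was clearly low, KO 3 overlapped the control arrays, and the log2 fold change was -0.15 ± 0.12 (SE), with an unadjusted limma p of 0.246.

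Psme1 and Psme2 encode the interferon-inducible activator ring. Psme2 had 6.33, 6.32 and 5.71 in KO brain, against 5.92, 6.19 and 5.81 in control brain, a log2 fold change of 0.15 ± 0.20 (SE). KO 1 and KO 2 were above the control arrays and KO 3 was below them. Psme1 had 7.97, 7.96 and 7.54 in KO brain, against 7.81, 7.97 and 7.49 in control brain. Psme3, the nuclear activator, was flat at 7.67 to 7.78 in KO and 7.64 to 7.72 in control brain.

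In the base of the regulatory particle, 6 ATPases unfold the substrate and thread it into the core. Their log2 fold changes lay between -0.11 and 0.10, 3 on each side of 0, and none passed. Psmc5 had 8.54, 8.61 and 8.47 in KO brain, against 8.50, 8.53 and 8.29 in control brain. Psmc1 had 8.67, 8.78 and 8.64 in KO brain, against 8.77, 8.58 and 8.46 in control brain. Both had values near 0.1 with standard errors as large.

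Psmc6 had the widest interval of the ATPases. It had 9.30, 9.36 and 9.02 in KO brain, against 9.54, 9.58 and 8.89 in control brain, where control 3 was the lowest and the other control arrays the highest of all 6. Its log2 fold change was -0.11 ± 0.20 (SE). Between arrays of the same number, KO minus control was -0.25, -0.22 and 0.13.

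Psmd1 and Psmd2 are the scaffold subunits of the base. Psmd1 had 8.99, 8.996 and 8.93 in KO brain, against 8.9999, 9.09 and 8.93 in control brain. Psmd2 had 8.66, 8.55 and 8.70 in KO brain, against 8.49, 8.63 and 8.77 in control brain. The ubiquitin receptor Psmd4 had 7.45, 7.61 and 7.38 in KO brain, against 7.67, 7.46 and 7.30 in control brain. The 3 log2 fold changes were -0.03, 0.01 and 0.01, and array 3 was the highest of its group in Psmd2 and the lowest in Psmd4.

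The lid removes ubiquitin from the substrate. Its 8 genes ranged from -0.08 to 0.09, 4 above and 4 below 0, with a median of 0.003. Psmd14, the deubiquitinase of the lid, had 6.78, 6.74 and 6.68 in KO brain, against 6.86, 6.98 and 6.59 in control brain. Psmd11, whose rising level is known to promote assembly of the regulatory particle in human embryonic stem cells, had 8.36, 8.23 and 8.28 in KO brain, against 8.03, 8.22 and 8.34 in control brain. The groups overlapped in both.

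Psmd7, the partner of Psmd14, had 9.09, 8.91 and 8.78 in KO brain and 8.94, 8.88 and 8.70 in control brain. Its KO value exceeded the control value of the same number by 0.15, 0.04 and 0.08, within the spread inside each group (SD 0.153 in KO and 0.124 in control brain). Psmd13, chosen after its values were seen, was among the 6 of 8 lid genes lower on both arrays numbered 3: it was at 6.87 in KO 3 and 6.84 in control 3, against 7.30 to 7.40 elsewhere.

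Assembly chaperones bind subunits before the particle is complete. Of the 3 that escort the base ATPases, Psmd9 had the largest positive value of the family, with 6.24, 5.90 and 5.70 in KO brain, against 5.76, 5.77 and 5.79 in control brain. KO 1 was the highest array, while KO 3 lay below all control arrays. The log2 fold change was 0.17 ± 0.15 (SE), with an unadjusted limma p of 0.285. Psmd10, an X-linked gene also known as the oncoprotein gankyrin, had 7.08, 6.92 and 6.83 in KO brain, against 7.44, 7.01 and 6.61 in control brain, and control 1 and control 3 were the highest and lowest of all 6 arrays. Psmd5 had 8.38, 8.51 and 8.64 in KO brain, against 8.46, 8.57 and 8.65 in control brain, a KO minus control of -0.09, -0.06 and -0.01 between arrays of the same number.

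The 4 chaperones of the core particle had values from 0.04 to 0.09, all above 0, where 54.8% of all genes lay above 0, and none passed the test. Psmg1 had 6.08, 6.10 and 5.82 in KO brain, against 5.85, 5.99 and 5.90 in control brain. Psmg3 had 5.25, 5.13 and 5.06 in KO brain, against 5.06, 5.40 and 4.73 in control brain. Psmg4 was dim, at 3.47 to 3.56 in KO and 3.39 to 3.50 in control brain. The groups overlapped in all of these.

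The members that are no proteasome parts did not pass either. Psmc3ip had 4.32, 4.52 and 4.33 in KO brain, against 4.52, 4.18 and 4.22 in control brain, and Psme3ip1 had 7.97, 7.94 and 8.13 in KO brain, against 7.94, 7.96 and 8.08 in control brain.

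Many proteasome genes were instead lower on both arrays numbered 3, a comparison chosen after the data were seen. In 28 of the 46 members both arrays numbered 3 lay below the other 4 arrays, against 20.6% of all genes tested, and in 3 members both lay above, against 23.4%. Among those lower were 5 of 7 alpha genes, 5 of 7 beta genes, 5 of 6 base ATPases, 6 of 8 lid genes and both genes of the inducible activator ring, and the remaining 5 were Psmb10, Psmd1, Psmd4, Psmd10 and Psmg4. Psmd2, Psmd5 and Psme3ip1 were the 3 above. The difference between arrays numbered 3 and the other 4 had a median of -0.17 over the members and 0.007 over all genes. It ran from -0.88 in Psma7 to 0.16 in Psmd5. The count of 28 goes by rank and includes small gaps, with differences of -0.08 in Psmb7, -0.09 in Psmd1 and -0.08 in the dim Psmg4. With each array centred on its median, 17 members in place of 28 lay below, against 13.9% of all genes under that scaling.

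The median deviation of the members from their own means was 0.03, 0.08 and -0.10 in KO arrays 1, 2 and 3, against 0.04, 0.06 and -0.14 in control arrays. Over all members, arrays of the same number therefore carried similar medians in both genotypes. By structural group this varied. The base ATPases had 0.03 in KO 1 and 0.03 in control 1, while the alpha ring had 0.02 and 0.23. The beta ring had -0.24 in KO 3 and -0.07 in control 3. Without both arrays numbered 3 the median within-group SD of the members was 0.080, against 0.156 with them; over all genes it was 0.119 without and 0.175 with them. The median log2 fold change without them was 0.02, and 0 members passed. With 2 arrays left per group, the groups did not overlap in 16 members, against 34.7% of all genes. In 7 members they did not overlap without KO 3 (18% of all genes), and in 7 without control 3 (21.2%).

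Other RNAs moved with the same arrays. Endothelial markers (4 of 4, among them Flt1 and Cldn5) were higher there. Their summed log2 levels were 7.81 in KO 3 and 7.67 in control 3, against 6.19 to 6.46 on the others. On those others, 4 genes of tissues other than brain summed to a similar 6.28 to 6.56, so endothelium was poorly measured there. Cldn5 (3.55 to 4.13) and Tek (3.51 to 3.84) lay there near the array medians of 3.85 to 3.97 before normalization. Neuron markers (5 of 5) were also higher on both arrays numbered 3. By contrast, 4 of 5 microglial and 3 of 5 astrocyte markers were lower on both than on the other 4. Summed microglial levels were 9.01 in KO 3 and 9.12 in control 3, against 9.46 to 9.59 elsewhere. Astrocyte markers summed to 11.4 and 11.3 on arrays numbered 3, against 11.5 to 11.7, and oligodendrocyte markers to 10.3 and 10.4, against 10.0 to 10.4. Between the genotypes, 3 of 4 oligodendrocyte markers lay below 0, and Opalin, a myelin gene, had a log2 fold change of -0.58 that limma did not call (adjusted p = 0.9998). Its unadjusted limma p was 0.0132, and 0.00696 with the replicate block. In Opalin and Mog, 2 of the 4 markers, all KO arrays lay below all control arrays, against 2.55% of all genes. The part of these RNAs, or of Xist, in the proteasome values was not tested.

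**Figure D3:**
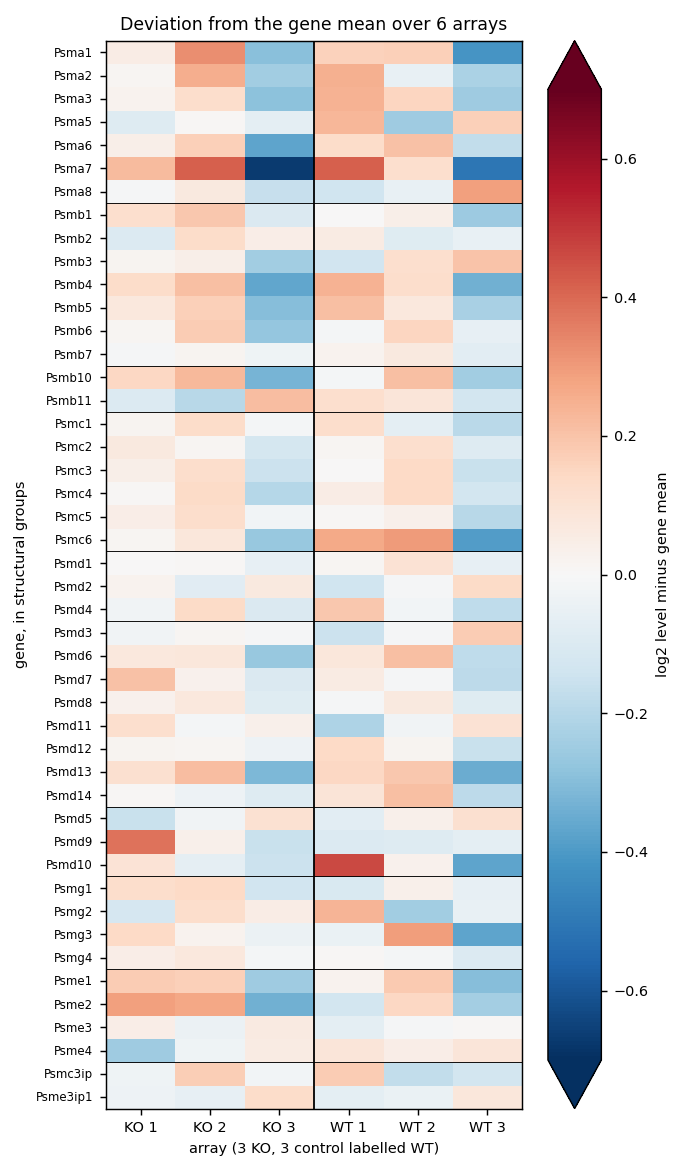
Log2 level of each proteasome gene (rows, by structural group) on each array (columns, KO left and control right) minus its mean over the 6 arrays; blue is below and red above the mean. The columns KO 3 and WT 3 are mostly blue, with Psma7 the darkest, and no row separates the KO from the control columns.

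Proteasome transcription is known to be driven by Nfe2l1, whose protein is cut and freed for the nucleus when the protease is overloaded, with help from the deglycosylase encoded by Ngly1. Nfe2l1 had 7.82, 7.74 and 8.08 in KO brain, against 7.72, 7.71 and 8.09 in control brain, and was higher on arrays numbered 3. Nfe2l2, the factor of the antioxidant response, had 6.95, 7.12 and 6.29 in KO brain, against 6.83, 6.98 and 6.14 in control brain, and was lower there. Ngly1 had 7.56, 7.47 and 7.30 in KO brain, against 7.64, 7.47 and 7.33 in control brain. Their log2 fold changes were 0.04, 0.13 and -0.03, and none passed.

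Both factors bind antioxidant response elements, whose core was searched as TGACNNNGC on both strands. It was found in 6 of the 38 members with a promoter window, or 15.8%, against 14% of all genes with one, and none of these matches overlapped a CCAAT box. The 6 are shown because they include both Psmb5 and Psmb6, with the core in capitals on the gene's strand, where GC then TCA marks the core on the opposite strand.
Psmb5, chr14:54618024-54618052, minus strand: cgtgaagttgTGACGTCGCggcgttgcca
Psmb6, chr11:70525338-70525366, plus strand: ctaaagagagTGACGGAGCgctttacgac
Psmc6, chr14:45329587-45329615, plus strand: ccagccagtaGCTAAGTCAggcattgctc
Psmd9, chr5:123228149-123228177, plus strand: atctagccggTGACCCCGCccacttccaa
Psmd12, chr11:107479278-107479299, plus strand: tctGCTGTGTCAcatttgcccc
Psme4, chr11:30771758-30771786, plus strand: cgctgcggctGCAGCGTCAccagaagagc
Members with the core had a median log2 fold change of -0.05 and those without it one of 0.01. The difference between arrays numbered 3 and the others had medians of -0.21 and -0.18 in these sets. Psma8, Psmb1, Psmb2, Psmb7, Psmc3, Psmd3, Psmd7 and Psmg2 were not searched.

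Of the 30 genes listed around the proteasome, 22 had a probeset of their own and 0 passed the test, with 13 above and 9 below 0 and a median log2 fold change of 0.02. Pomp, which matures the core particle, had 8.81, 9.07 and 8.71 in KO brain, against 8.86, 8.86 and 8.54 in control brain. Akirin2, which carries proteasomes into the nucleus, had 8.78, 8.73 and 8.68 in KO brain, against 8.82, 8.84 and 8.71 in control brain. Of the 6 genes in this list of parts and regulators, 5 were lower on both arrays numbered 3, as most subunits were, against 20.6% of all genes. Psmf1, which encodes a proteasome inhibitor, was the exception, at 6.80 in KO 3 and 6.74 in control 3, against 6.23 to 6.40 elsewhere.

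None of the enzymes that edit ubiquitin at the proteasome passed the test. Usp14, a deubiquitinase, had 8.81, 8.75 and 8.74 in KO brain, against 8.86, 8.87 and 8.69 in control brain, and the ligase Ube3c had 8.54, 8.39 and 8.57 in KO brain, against 8.53, 8.58 and 8.51 in control brain. The activating enzyme Uba6 had a log2 fold change of 0.04 ± 0.10 (SE). Ubiquitin genes themselves were not analysed here.

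Shuttles carry ubiquitinated proteins to the proteasome, and the segregase Vcp with its cofactors pulls them out of complexes. Of these 7 genes 0 were lower and 3 higher on both arrays numbered 3, against 20.6% and 23.4% of all genes tested. The difference from the subunits was not tested. Ubqln4 had the smallest p of the listed genes, with 6.68, 6.80 and 6.83 in KO brain, against 6.49, 6.56 and 6.77 in control brain, a log2 fold change of 0.17 ± 0.12 (SE). Rad23b was the only listed gene whose groups did not overlap, with 8.78, 8.70 and 8.71 in KO brain, against 8.51, 8.69 and 8.69 in control brain, where 3.14% of all genes had all KO arrays above all control arrays. KO 2 and control 3 nearly touched, and Rad23b did not pass the test. Ubqln2, whose human counterpart is mutated in familial motor neuron disease, had 8.24, 8.20 and 8.53 in KO brain, against 7.98, 8.18 and 8.66 in control brain. Vcp, also mutated in the human disease, had 9.07, 8.96 and 9.09 in KO brain, against 9.19, 8.88 and 9.27 in control brain. Its log2 fold change was -0.07 with this probeset and -0.199 with the mean of its 2 probesets, and neither passed the test.

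**Figure D4:**
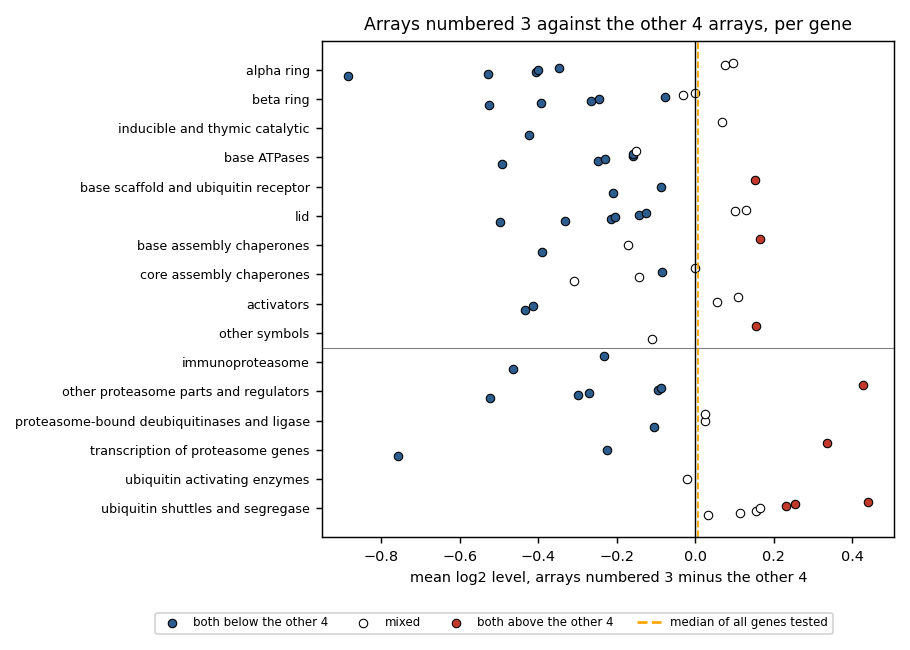
Mean log2 level on the arrays numbered 3 (1 KO, 1 control) minus the mean on the other 4, per gene, by structural group and, under the grey line, by list of related genes; fill shows whether both arrays numbered 3 lay below, above or among the others. Most proteasome genes lie left of the median of all genes (0.007), Psma7 furthest at -0.88 of the members, while ubiquitin shuttles lie right of it.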

How the data were processed

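Per the labels' protocols, total brain RNA was extracted with TRIzol, and 150 ng per sample went into WT Plus labelling. The deposited table gives, for 41340 probesets, intensity as the authors computed it, not log transformed. The submitters' processing notes list MAS5 without a version; its settings, the build and any scan batch were not stated. Values were taken as log2(intensity + 1) and quantile normalized, since array medians differed by 0.12 (limit 0.1). The annotation gives 1 symbol for 23521 probesets, several for 1814 and none for 16005. The dimmest 25% of genes (5545) were left out. KO and control were compared with limma 3.58.1 in R 4.3.3 (lmFit and eBayes, two-sided), with Benjamini-Hochberg adjustment over 16635 genes. The procedure was tested on simulated data, drawn with independent noise per gene and array. The real arrays numbered 3 shared deviations across genes, so that test does not show what size of difference could be found here. A fold on this scale understates changes of dim genes. All 46 members matched the RefSeq table of GRCm38.p6 by gene identifier. Plots used matplotlib 3.10.9 in Python 3.11.15.

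The members and lists were chosen with earlier results of these data known. Named were, per structural group, the 3 members with the smallest p, the catalytic beta subunits, per list the 2 with the smallest p, and all of the immunoproteasome and transcription lists; Psma1, Psma7, Psma8, Psmb4, Psmd13, Psme1, Psmf1, Ubqln2 and Vcp were added after their values were seen. The 3 arrays per group limit precision. The labels do not tie samples to single animals, and the p-values rest on the spread among samples, which may be technical. Replicate numbers were checked for pairing. Deviations from group means correlated at 0.314, 0.367 and 0.752 for numbers 1, 2 and 3, all over the limit of 0.1 set for pairs. This comes from the data and not from a label. Arrays 1 and 2 correlated as much across numbers: KO 2 with control 1 at 0.401, and KO 1 with control 2 at 0.373. Deviations within a group sum to 0, so a shift shared by the arrays numbered 3 makes the others correlate whatever their number. Numbers 1 and 2 are therefore not shown to be pairs, and the replicate block rests on taking them as such. Alternatives covered normalization, filter, pseudocount, probeset rule, array weights, the replicate block and left-out arrays. Coordinates of promoters are those of RefSeq, 250 bases before to 50 after each start.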

Additional observations from a re-analysis of the deposited data

How the results depend on the processing

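Under the 15 alternatives, 0 of the 46 proteasome genes (41 where only the upper 50% of genes were tested) were called at an adjusted p of 0.05 or reached an unadjusted p of 0.05 in limma, the replicate block among them, which changed no call of a member, a listed gene or Elavl1. At an unadjusted p under 0.05 all genes gave 282, against 806 with the replicate block, 755 when arrays were weighted, 854 without both arrays numbered 3, 465 without a brightness filter, 88 in the upper 50% of genes and 163 to 574 with single arrays left out. The number of members above 0 ran from 16 to 34, and was 34 with arrays centred on their median, where 68.6% of all genes lay above 0 in place of 54.8%. The number whose groups did not overlap was 0 as reported, 1 with values as deposited, 1 with a pseudocount of 16, 16 without both arrays numbered 3 (34.7% of all genes then) and 0 to 7 with single arrays left out, 7 without KO 3 (18% of all genes) and 7 without control 3 (21.2%). Elavl1, at -0.05 as reported, was at 0.014 with arrays centred on their median, 0.058 without both arrays numbered 3 and 0.025 when arrays were weighted, and ran from -0.18 to 0.080 with single arrays left out. The median of the listed genes was 0.075 with arrays centred on their median and ran from 0.0018 to 0.037 with single arrays left out. With arrays centred on their median, the median genotype difference of all genes was 0.055, and 17 members (13.9% of all genes) lay lower on both arrays numbered 3. Signs of single members turned easily: 33 of 46 turned at least once, by 1 standard error or more for Psma5 with the mean of its probesets (0.196), Psmb3 (0.0377) and Psma8 (0.126) without both arrays numbered 3, Psma7 (-0.279 to 0.31) and Psmd10 (-0.285 to 0.131) with single arrays left out. The cause of these changes was not tested. Overlap counts cannot be compared between settings with unlike numbers of arrays, since groups of fewer arrays overlap less often. Low brightness limits Psma5, Psma8, Psmb11 and Psmg4, and Psmb9 outside the family. The comparison of arrays numbered 3 with the others was chosen after seeing the data.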
